A study of Mus musculus with 18 samples.

Results

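The pyruvate dehydrogenase genes described here are the 4 pyruvate dehydrogenase kinases (Pdk1, Pdk2, Pdk3 and Pdk4), the phosphatase genes Pdp1, Pdp2 and Pdpr, and 3 subunits of the enzyme complex, Pdha1, Pdhb and Dlat. They were chosen by name as the genes that set the choice between glucose and fat as fuel. All 10 were present among the 12558 genes of the deposited table, and all 10 were among the 12524 genes tested. The study compared skeletal muscle of mice in 6 groups of 3 libraries each, 18 in all, after 10 weeks on their diet. Untreated wild-type mice were fed normal chow or a high-fat diet (HFD). Further wild-type mice on each diet received a drug labelled AQ in the drinking water. The remaining groups, both on HFD, were mice with a Nurr1 transgene (Nurr1-mTg) and wild-type mice labelled as the transgenic controls. Nurr1 is the product of Nr4a2, a nuclear receptor of the NR4A family. The sources used here do not give the muscle sampled, the sex and age of the mice, the promoter of the transgene or the full name of AQ.

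The pyruvate dehydrogenase complex turns pyruvate, the end product of glycolysis, into acetyl-CoA inside mitochondria, and so commits glucose carbon to oxidation. The kinases phosphorylate the E1 alpha subunit encoded by Pdha1 and switch the complex off, and the phosphatases remove the phosphate and switch it on. In muscle, PDK4 is the kinase best known to be induced by fasting and fat feeding through PPAR, FOXO and glucocorticoid receptors, which spares glucose while fatty acids are burnt. PDK2 is the most widely expressed kinase, and PDP1 is the calcium-stimulated phosphatase of muscle. RNA levels do not show the phosphorylation state of the complex, which was not measured here.

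RefSeq promoter windows on GRCm38.p6 were matched by symbol for 9 of the 10 genes, with 11 windows in all; Pdp1 had none. The stretches upstream of the gene start are shown for Pdk4, the gene with the widest range between libraries, for Pdk2, the gene that passed the test in more than 1 comparison, and for Pdhb and Dlat, whose levels moved together. All 4 genes lie on the minus strand, at chr6:5496310-5496528, chr11:95041372-95041621, chr14:8173026-8173242 and chr9:50659781-50660030 in the same order. Each is written 5′ to 3′ with matches to a searched motif in capitals.
Pdk4: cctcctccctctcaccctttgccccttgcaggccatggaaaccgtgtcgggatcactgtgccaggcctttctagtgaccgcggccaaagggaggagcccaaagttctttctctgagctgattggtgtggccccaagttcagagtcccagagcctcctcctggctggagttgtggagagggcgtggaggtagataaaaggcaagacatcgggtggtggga
Pdk2: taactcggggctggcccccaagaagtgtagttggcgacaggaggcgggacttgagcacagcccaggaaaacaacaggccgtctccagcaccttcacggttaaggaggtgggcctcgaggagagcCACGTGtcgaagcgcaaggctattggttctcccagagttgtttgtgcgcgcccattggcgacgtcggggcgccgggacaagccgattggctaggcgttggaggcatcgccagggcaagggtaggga
Pdhb: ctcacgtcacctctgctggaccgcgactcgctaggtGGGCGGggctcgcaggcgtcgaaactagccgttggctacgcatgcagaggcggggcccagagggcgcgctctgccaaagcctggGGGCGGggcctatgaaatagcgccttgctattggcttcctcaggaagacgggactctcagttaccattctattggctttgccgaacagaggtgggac
Dlat: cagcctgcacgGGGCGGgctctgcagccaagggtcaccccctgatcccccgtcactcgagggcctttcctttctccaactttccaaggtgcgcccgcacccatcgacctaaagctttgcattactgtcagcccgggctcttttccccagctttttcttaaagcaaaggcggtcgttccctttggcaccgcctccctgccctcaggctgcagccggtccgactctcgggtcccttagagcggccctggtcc

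The capitals in Pdk2 mark an E-box, CACGTG, whose first base lay 126 bases upstream of the RefSeq start. Those in Pdhb and Dlat mark GC boxes, GGGCGG, of which Pdhb held 2. Motifs were searched on both strands of the 250 bases upstream of the start, and the E-box occurred in 6.02% and the GC box in 32.7% of 32851 such windows. The Pdk4 window held none of the 9 motifs searched, and neither did that of Pdha1. The other 7 were the NBRE (AAAGGTCA, 1.34% of windows), the FOXO core (GTAAACA, 3.17%), an estrogen-related receptor element (TCAAGGTCA, 0.387%), a DR1 element (AGGTCA repeated after 1 base, 0.0335%), a glucocorticoid half-site pair (AGAACA and TGTTCT with 3 bases between, 0.00913%), the TATA box (TATAAA, 12.4%) and the CRE (TGACGTCA, 1.55%). The NBRE and the receptor element share the letters AAGGTCA, and DR1 holds part of them. No window of the 9 genes held an NBRE, the element that NR4A receptors bind.

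Muscle identity was clear in every library, with summed levels of the 6 fibre markers (Ckm, Acta1, Mylpf, Tnnt3, Ttn and Mb) between 90374 and 127013 CPM, the read count scaled to the size of the library. Nr4a2 itself lay at 18.8 to 30.1 CPM in the transgenic libraries and at 0.828 to 4.79 CPM in all others. The libraries held 10404895 to 16082994 reads. Replicate 1 of the chow group stood apart from replicates 2 and 3. Its 25 PPAR target genes of fat use lay on average 0.14 above their mean over all libraries in log2 CPM, against 0.58 and 0.50 below it in the other chow libraries. A clock score, the log2 level of Arntl minus that of Dbp, also differed between groups and is given beside the results it moved with. Where it did not overlap between the groups compared, a fit with it as covariate cannot tell the score from the group.

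Per kilobase of exon, which allows levels of different genes to be compared, Pdha1 had the highest mean over the 18 libraries at 368 CPM per kb. Pdk4 followed at 304 and Pdk2 at 272 CPM per kb. Pdhb lay at 114 and Dlat, the E2 core subunit, at 72.1 CPM per kb. The phosphatase Pdp1 (30.01 CPM per kb) and Pdpr, the regulatory subunit that restrains it (28.1), were about level, and Pdk1 was lower at 19.8. Pdp2 at 1.11 and Pdk3 at 0.549 CPM per kb were far lower, and Pdk3 rested on 5 to 26 reads per library. Muscle of all 6 groups thus held 2 abundant kinase mRNAs, Pdk4 and Pdk2. The main phosphatase mRNA was Pdp1, at a level far below these kinases and nearer that of Pdk1.

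**Figure D1:**
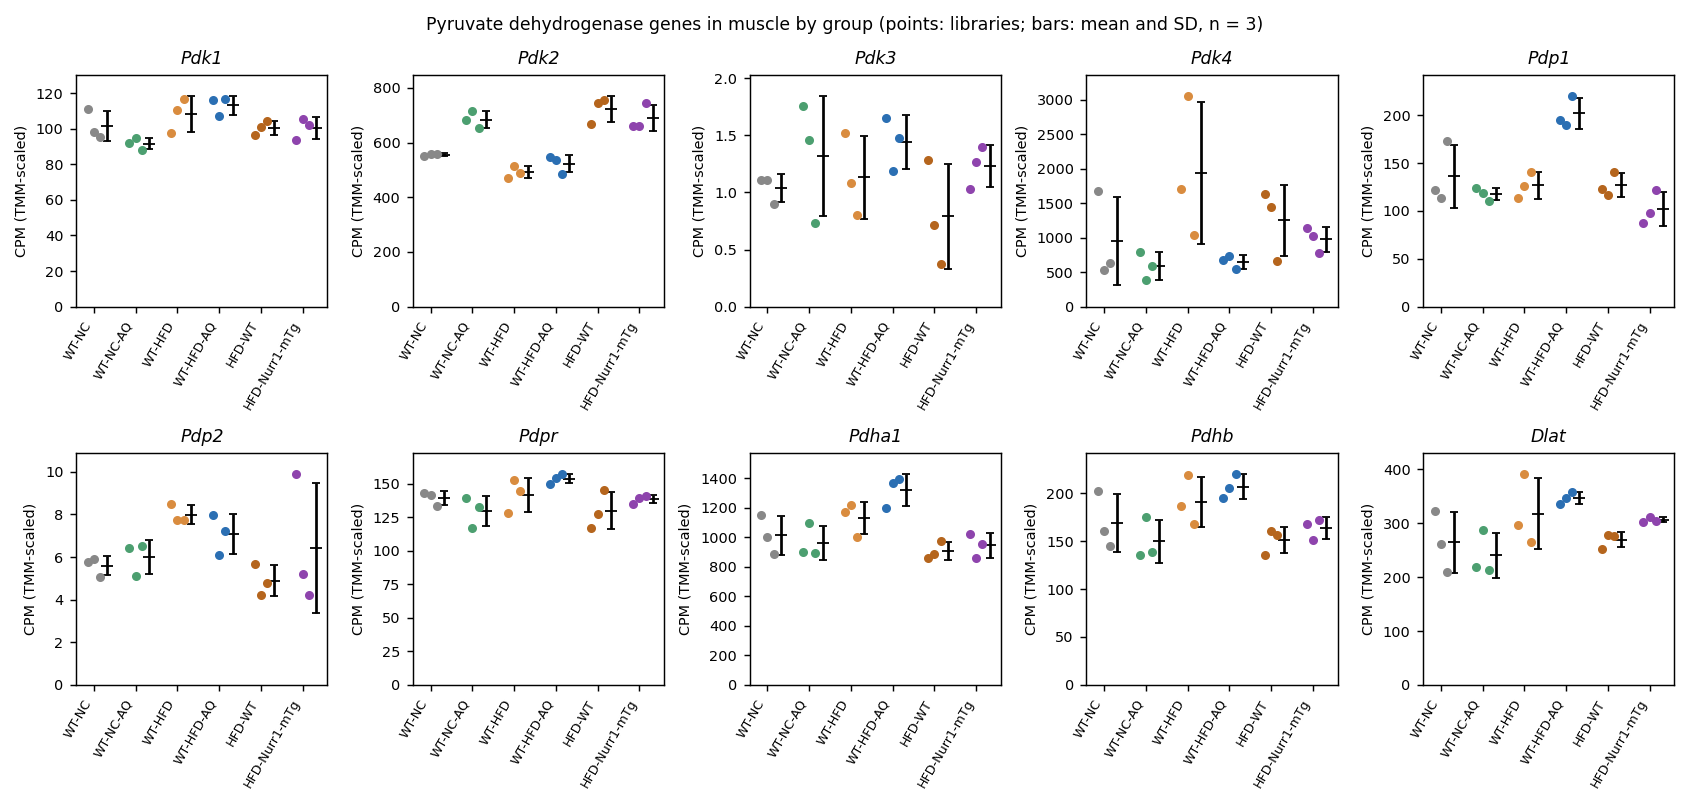
CPM of the 10 genes (vertical axes, each from 0) in the 6 groups (horizontal axes); points are libraries and bars the mean and SD of 3. Pdk4 ranged from 385 to 3060 CPM, while Pdp1 was above 190 CPM in the 3 HFD libraries with AQ and at or below 173 CPM in every other library.

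The genes differed in how much they varied. The spread of log2 CPM over all libraries put Pdk4 at percentile 99.4 of the genes tested and Pdp1 at 92.1. Pdk1 (percentile 21.2) and Pdpr (20.3) were among the steadier genes. The highest Pdk4 library held 7.95 times the lowest, and for Pdpr that ratio was 1.34. Exons of Pdha1 share 603 bases with Map3k15 on the opposite strand, and exons of Pdpr share 169 bases with 9430091E24Rik; those neighbours stayed at or below 3.49 and 2.78 CPM. The sources used here do not say whether strand was used in the counting, so reads from the shared bases cannot be told apart.

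High-fat diet alone was compared with chow in untreated wild-type mice. Pdk4 was at 1679, 524 and 639 CPM in the 3 chow libraries and at 1709, 3060 and 1041 CPM in the 3 HFD libraries. The groups overlapped, because chow replicate 1 sat among the HFD values. The mean was 947 ± 636 CPM (SD, n = 3) on chow and 1937 ± 1029 CPM on HFD, and the log2 fold change of 1.09 ± 0.42 (SE) did not pass the test (limma adjusted p = 0.425). Without chow replicate 1 the log2 difference was 1.60 with a limma adjusted p of 0.101, and without HFD replicate 2 it was 0.69.

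Pdk2 was slightly lower on HFD, at 472, 516 and 488 CPM against 549, 559 and 558 CPM on chow. All 3 HFD libraries lay below all 3 chow libraries, yet the log2 difference of -0.18 ± 0.07 missed the threshold (limma adjusted p = 0.471). Pdp2, the less abundant phosphatase, was at 8.51, 7.72 and 7.75 CPM on HFD and at 5.79, 5.91 and 5.07 CPM on chow. These groups did not overlap either, and the log2 difference was 0.45 ± 0.19 (limma adjusted p = 0.472). Pdp1 differed by -0.08 and Pdpr by 0.02 on the log2 scale. The subunits were all higher in the mean, by 0.16 for Pdha1, 0.18 for Pdhb and 0.27 for Dlat, each with overlapping groups.

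None of the 10 genes passed in this comparison, against 6 of 12524 genes, or 0.0479% (limma). At an unadjusted p under 0.05 there were 3 of the 10 genes and 1193 genes in all, or 9.53%. edgeR called 5 genes and DESeq2 47, with none of the 10 among them. The median log2 difference of the 10 genes was 0.12, beside 0.00 over all genes. In bulk RNA of a tissue, fewer cells of a type and less RNA per cell cannot be told apart.

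Genes around the complex gave a reference for that diet effect. Of the 25 PPAR target genes of fat use, 24 were above 0 on HFD, with a median log2 difference of 0.59. Only Ech1 and Decr1 passed, both enzymes that handle unsaturated fatty acids in beta-oxidation, at 0.84 ± 0.13 (limma adjusted p = 0.0274) and 0.73 ± 0.12 (0.0344). Of the 14 other genes of the complex and of pyruvate entry, none passed and 8 were above 0. None of the 18 regulators known to act on Pdk4 passed. The 7 adipocyte markers moved too, with 6 above 0 and a median of 1.27, none past the threshold, and their part in the result was not tested. Their summed level overlapped, at 1936 to 3077 CPM on chow and 2496 to 3629 CPM on HFD. Most of that sum was Car3, at 1833 to 3009 CPM on chow and 2372 to 3469 CPM on HFD. A mean log2 level that weighs the 7 markers alike, relative to their mean over all libraries, did not overlap. It was -0.26, -1.04 and -0.75 on chow and 0.23, 0.36 and 0.63 on HFD. Markers of some other cells were mostly above 0 too. These were 5 of 5 fibroblast and matrix markers (median 0.40), 4 of 4 measured leukocyte markers (0.35) and 4 of 5 endothelial markers (0.19). Of the 4 Schwann cell markers 1 was above 0 (median -0.03). None of these markers passed, and their part was not tested.

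AQ on HFD was compared with untreated HFD. Pdk4 and Pdp1 differed most among the 10 genes, in opposite directions: the kinase that switches the complex off was lower and the phosphatase that switches it on was higher. Pdk4 was at 679, 733 and 539 CPM with AQ and at 1709, 3060 and 1041 CPM without. All 3 AQ libraries were below all 3 untreated HFD libraries, and the AQ libraries lay within a narrow band. The log2 difference of -1.45 ± 0.42 did not pass (limma adjusted p = 0.166). Without untreated HFD replicate 3, the lowest of its group, it was -1.82 with a limma adjusted p of 0.0421. Leaving out the library nearest the other group enlarges a difference, and this was the only 1 of 16 alternative fits in which Pdk4 passed. At the other end the difference was -1.05, and adjusted p in limma, edgeR or DESeq2 reached 0.462.

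Pdp1 was at 195, 190 and 220 CPM with AQ and at 113, 126 and 141 CPM without. The groups were well apart, with every AQ library above every untreated one. The mean was 202 ± 16.2 CPM (SD, n = 3) against 127 ± 14.0 CPM, and the log2 difference of 0.67 ± 0.14 fell just short of the threshold (limma adjusted p = 0.0712). It passed with DESeq2 on the recovered reads (adjusted p = 0.00298) and, in limma, without untreated HFD replicate 3 (adjusted p = 0.0225). In all, Pdp1 passed in 3 of 16 alternative fits. Its difference ran from 0.60 to 0.75 over these fits, and adjusted p in limma, edgeR or DESeq2 reached 0.261.

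The other genes showed small differences. Pdha1 was 0.23 ± 0.11 higher with AQ on the log2 scale, Dlat 0.14 and Pdhb 0.12 higher, each far from the threshold. Pdk2 differed by 0.09, Pdk1 by 0.07, Pdpr by 0.12, Pdp2 by -0.16 and Pdk3 by 0.20. Thus 8 of the 10 genes were above 0, and none passed in limma, against 6 genes or 0.0479% of all tested. At an unadjusted p under 0.05 there were 2 of the 10 genes, and 1474 in all. edgeR called 6 genes and none of the 10, and DESeq2 called 140 genes, among them Pdp1.

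Among related genes, none of the 14 genes of the complex and pyruvate entry passed, and Ldha, the muscle lactate dehydrogenase subunit, had the smallest unadjusted p at -0.25 ± 0.14. Of the 14, 10 were above 0, with a median of 0.12, and 0 had an unadjusted p under 0.05. Ppm1k, the phosphatase of the branched-chain 2-oxo acid dehydrogenase, a sister complex, was at 0.69 ± 0.14 with a limma adjusted p of 0.0712. None of the 12 fasting and glucocorticoid response genes passed, and 1 of the 12 was above 0, with a median log2 difference of -0.53. The PPAR targets, by contrast, had 14 of 25 above 0 and a median of 0.07. The regulator with the smallest unadjusted p was Foxo3, a FOXO factor, at -0.36 ± 0.14. The summed adipocyte markers did not overlap, at 1913 to 2340 CPM with AQ and 2496 to 3629 CPM without. Most of that sum was Car3, at 1858 to 2243 CPM with AQ and 2372 to 3469 CPM without. The mean log2 level of the 7 markers did not overlap either, at -1.07 to 0.06 with AQ and 0.23 to 0.63 without. The 5 fibroblast and matrix markers were all below 0, with a median log2 difference of -0.70 and 4 at an unadjusted p under 0.05. None of the 5 passed, with Col3a1 at -1.03 ± 0.24 (limma adjusted p = 0.0963), and their sums overlapped, at 1288 to 1758 CPM with AQ and 1611 to 3133 CPM without. The part of these markers in the differences was not tested. The clock score did not overlap either, by a narrow margin, at -4.65 to -3.96 with AQ against -3.93 to -3.43 without.

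AQ on chow was compared with untreated chow. Here the member with the clearest difference was Pdk2, at 684, 716 and 652 CPM with AQ and at 549, 559 and 558 CPM without. Every AQ library lay above every untreated one, by a margin larger than the spread within either group. The means were 684 ± 32.04 CPM (SD, n = 3) and 555 ± 5.29 CPM, and the log2 difference of 0.30 ± 0.07 fell short of the threshold (limma adjusted p = 0.0614). DESeq2 called Pdk2 (adjusted p = 0.00478), while removing the trend with GC content lowered the limma value to 0.21 (adjusted p = 0.226).

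Pdk4 was at 786, 385 and 582 CPM with AQ on chow, within the range of the untreated chow libraries apart from replicate 2. Its log2 difference was -0.56 ± 0.42 (limma adjusted p = 0.565). It was -0.046 (limma adjusted p = 0.972) without chow replicate 1, the library that stood apart, and -1.12 (0.235) with the clock score as a covariate. Pdp1 was at 124, 119 and 111 CPM, which overlapped chow at 121, 113 and 173 CPM. Pdk1 was at 92.1, 94.9 and 88.3 CPM against 111, 98.5 and 95.5 CPM, so that all AQ libraries were just below all untreated ones, at a log2 difference of -0.14 ± 0.08 (limma adjusted p = 0.390). The subunits were lower in the mean by at most 0.17 on the log2 scale, the value of Pdhb, with overlapping groups.

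None of the 10 genes passed on chow, against 139 genes or 1.11% of those tested. 1 of the 10 had an unadjusted p under 0.05, as had 1942 genes in all, and edgeR called 146 genes with none of the 10. Only 3 of the 10 were above 0, with a median of -0.12. Bnip3 and Slc2a1 of the 10 hypoxia response genes passed, at -0.31 ± 0.07 (limma adjusted p = 0.0442) and 0.64 ± 0.14 (0.0422); Slc2a1 encodes the glucose transporter GLUT1. None of the 14 genes of pyruvate entry, the 18 regulators or the 25 PPAR targets passed. Of the regulators, Ppara, the fatty-acid-sensing nuclear receptor, was at -0.94 ± 0.29 (limma adjusted p = 0.128). The clock score was higher with AQ on average but overlapped, at -1.62, -1.12 and -0.24 against -0.65, -2.89 and -4.37 without, and 3 of 15 clock genes passed. The summed leukocyte markers did not overlap, at 95.6 to 133 CPM with AQ and 62.4 to 68.2 CPM without, with 4 of the 6 markers in the table. The 5 endothelial markers were all above 0, with a median of 0.34, and Vwf, von Willebrand factor, passed at 0.45 ± 0.09 (limma adjusted p = 0.0251). Their sums overlapped, at 386 to 466 CPM with AQ and 293 to 391 CPM without. The part of these markers was not tested.

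The diet was also compared among mice given AQ, and this comparison shares no library with the one in untreated mice. Here 6 of the 10 genes passed. Pdp1, Pdk1 and the 3 subunits Pdha1, Pdhb and Dlat rose on HFD, and Pdk2 fell. Pdk4 did not pass, and neither did Pdk3, Pdp2 or Pdpr. Many genes differed in this comparison: 1324 of 12524, or 10.6%, with 4.89% higher and 5.68% lower. Under scaling to the plain total, 833 genes were higher and 375 lower, in place of 613 and 711.

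Pdp1 was at 195, 190 and 220 CPM on HFD with AQ, and at 124, 119 and 111 CPM on chow with AQ. The groups lay far apart, and this was the largest difference among the 10 genes. Pdp1 rose by 0.77 ± 0.14 on the log2 scale (limma adjusted p = 0.00237). Pdk2 was at 547, 535 and 486 CPM on HFD with AQ against 684, 716 and 652 CPM on chow with AQ. Every HFD library was below every chow library, and Pdk2 fell by 0.39 ± 0.07 (limma adjusted p = 0.00353). Pdk1, the kinase best known as a target of hypoxia-inducible factor, was at 116, 107 and 117 CPM against 92.1, 94.9 and 88.3 CPM. It rose by 0.30 ± 0.08 without overlap (limma adjusted p = 0.0196).

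The subunits formed a group with like changes. Pdha1 was at 1200, 1371 and 1398 CPM on HFD with AQ and at 898, 1095 and 893 CPM on chow with AQ, a log2 difference of 0.46 ± 0.11 (limma adjusted p = 0.0153). Pdhb, the E1 beta subunit, was at 195, 205 and 220 CPM against 136, 176 and 138 CPM, a difference of 0.47 ± 0.12 (limma adjusted p = 0.0230). Dlat was at 335, 347 and 357 CPM against 219, 288 and 213 CPM, a difference of 0.54 ± 0.14 (limma adjusted p = 0.0240). None of the 3 overlapped between the diets, and in each the second chow library was the highest of its group. How many of all genes did not overlap was not counted. In this comparison 3177 genes, or 25.4% of those tested, had an unadjusted p under 0.05 (limma). The 3 subunits also varied together with group means removed, at Pearson r from 0.81 to 0.92. They are thus not 3 separate observations.

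Pdpr was higher without overlap as well, at 150, 154 and 157 CPM against 139, 117 and 133 CPM, with a log2 difference of 0.25 ± 0.08 short of the threshold (limma adjusted p = 0.0656). Pdpr passed under scaling to the plain total, at 0.32 (limma adjusted p = 0.0245), and with only the groups compared in the fit (0.0495), which makes 7 of the 10 genes in either case. Pdk4 was at 679, 733 and 539 CPM on HFD and 786, 385 and 582 CPM on chow, both with AQ. These overlapped, and the log2 difference was 0.20 ± 0.42 (limma adjusted p = 0.815). The diet difference of Pdk4 was thus 1.09 in untreated and 0.20 in AQ-treated mice, and the test of the difference between these follows with the interaction.

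The clock score separated these groups, at -4.65 to -3.96 on HFD with AQ and -1.62 to -0.24 on chow with AQ. Because it did not overlap, a fit with the score as covariate cannot tell its part from that of diet. The slope of the score in that fit came from spread within groups, widest on untreated chow, at -0.65, -2.89 and -4.37. Adding the score to the model left 4 of the 10 genes called, among 531 genes in all. Pdp1 was then at 0.35 (limma adjusted p = 0.339) and Pdk1 at 0.39 (0.0927), while Pdk2 at -0.48 (0.0339) stayed past the threshold, and Pdk4 was at 1.30 (0.259). The 3 subunits stayed past it too with larger differences, at 0.73 for Pdha1 (limma adjusted p = 0.0250), 0.80 for Pdhb (0.0249) and 0.92 for Dlat (0.0258). Leaving out single libraries gave 2 to 6 of the 10 genes, with 2 called without chow with AQ replicate 1 or 3 or without HFD with AQ replicate 3, and 3 without HFD with AQ replicate 2. Markers of other cells moved as well. The 4 leukocyte markers summed to 68.4 to 74.0 CPM on HFD and 95.6 to 133 CPM on chow, and the 7 adipocyte markers to 1913 to 2340 and 2446 to 2541 CPM. Both sets of sums were lower on HFD without overlap, and Csf1r was the leukocyte marker that passed, at -0.54 ± 0.16. Most of the adipocyte sum was Car3, at 1858 to 2243 CPM on HFD and 2355 to 2437 CPM on chow. The mean log2 level of the 7 adipocyte markers overlapped, at -1.07 to 0.06 on HFD and -0.47 to -0.10 on chow. The part of both sets was not tested. Of other markers, myoglobin (Mb) passed at 0.85 ± 0.23 and the collagen gene Col3a1 at -0.98 ± 0.24, while none of the 6 slow-fibre markers did. Of the 6 muscle fibre markers, Mb among them, 2 were above 0, with a median of -0.13. Of the 5 fibroblast and matrix markers, Col3a1 among them, 1 was above 0, with a median of -0.31.

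**Figure D2:**
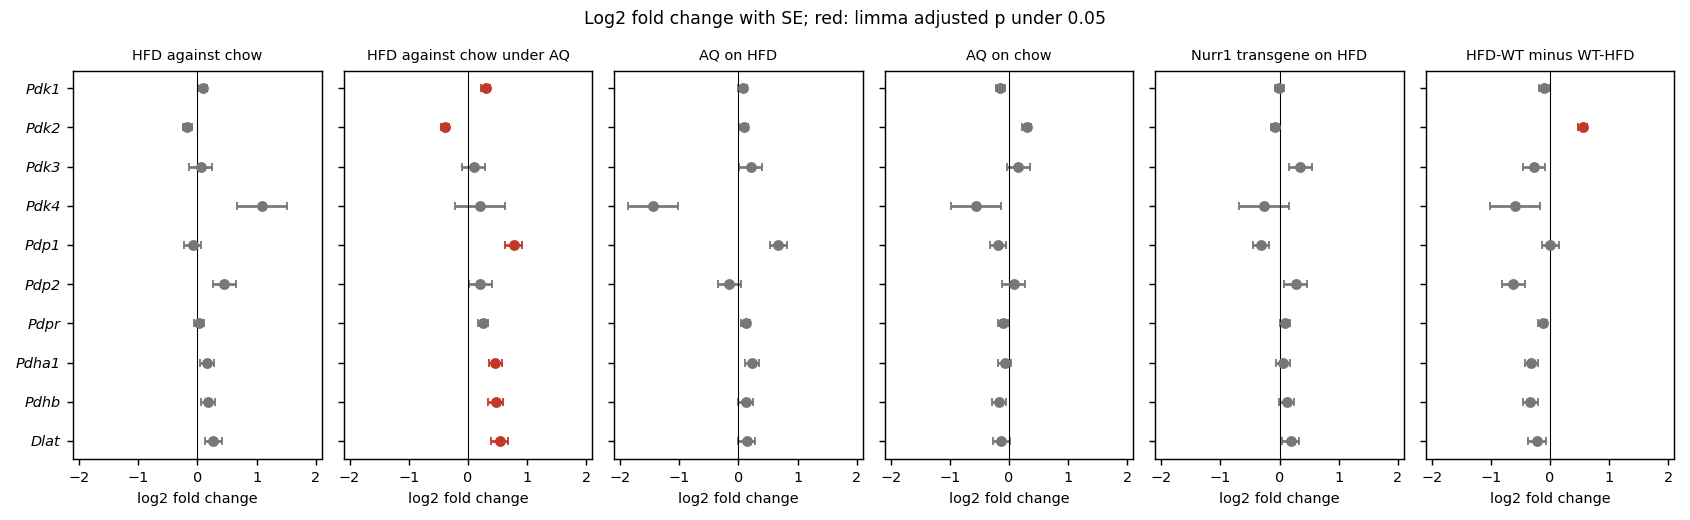
Log2 fold change (horizontal axis, on log2 of CPM + 1) with its standard error for the 10 genes in 6 comparisons; red marks a limma adjusted p under 0.05. The 6 red points of the diet comparison under AQ and that of Pdk2 between the wild-type HFD groups are those that passed.

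Other genes of pyruvate handling also passed in the comparison under AQ, in both directions. Of 14, 4 rose and 2 fell. Dld, the E3 subunit of the complex, rose by 0.57 ± 0.10 (limma adjusted p = 0.0017), and Slc16a1, the monocarboxylate transporter MCT1, by 0.72 ± 0.17 (0.0123). Pcx, pyruvate carboxylase, fell by 0.58 ± 0.16 (limma adjusted p = 0.0244), and Slc16a3, the lactate exporter MCT4, by 0.56 ± 0.15 (0.0246). The median of the 14 was 0.23, and that of the 10 pyruvate dehydrogenase genes 0.27, beside 0.00 over all genes.

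Of the 25 PPAR target genes of fat use 16 passed, all higher, led by the fatty acid binding protein Fabp3 at 1.91 ± 0.29 (limma adjusted p = 0.000609), the thioesterase Acot1 at 1.68 ± 0.24 and the lipid droplet protein Plin5 at 1.66 ± 0.31. Of the 18 regulators of Pdk4 only Ppard passed, at -0.33 ± 0.09 (limma adjusted p = 0.0208). Of the 12 fasting and glucocorticoid genes 1 rose and 5 fell, among them the cell cycle inhibitor Cdkn1a at -1.51 ± 0.31 (limma adjusted p = 0.0058). None of the 7 genes of the related 2-oxo acid dehydrogenases passed.

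The interaction of AQ and diet asked whether the AQ effect differed between the diets, and equally whether the diet effect differed with AQ. Pdp1 came closest, with AQ effects of 0.67 on HFD and -0.18 on chow. The interaction was 0.86 ± 0.20 and missed the threshold (limma adjusted p = 0.0540). It passed with DESeq2 (adjusted p = 0.00518) and in limma without chow replicate 1 (adjusted p = 0.0459) or 2 (0.0409), or without untreated HFD replicate 3 (0.0460). With the clock score as covariate the Pdp1 interaction was 0.58 (limma adjusted p = 0.189).

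For Pdk4 the AQ effects of -1.45 on HFD and -0.56 on chow gave an interaction of -0.89 ± 0.60 (limma adjusted p = 0.525). The diet effects of 1.09 and 0.20 on Pdk4 were thus not shown to differ. Without chow replicate 1 that interaction was -1.40 (limma adjusted p = 0.242), without chow replicate 2 it was -0.56 and without untreated HFD replicate 2 it was -0.49. With the clock score as covariate it was -0.16 (limma adjusted p = 0.927). For Pdk2 the interaction was -0.21 ± 0.11 and for Pdk1 0.21 ± 0.11, and the subunits lay between 0.27 and 0.30, none past the threshold. None of the 10 passed, against 89 genes or 0.711% (limma). Pdp1 was the only one of the 10 with an unadjusted p under 0.05, among 1770 genes in all, and edgeR called 76 genes and none of the 10.

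The wild-type mice on HFD formed 2 groups, one beside the AQ groups and one beside the transgenic mice, and no named treatment separates them. Pdk2 was at 667, 745 and 757 CPM in the transgenic controls and at 472, 516 and 488 CPM in the other wild-type HFD group. The groups were far apart, and the log2 difference of 0.55 ± 0.07 passed (limma adjusted p = 0.000854). The diet and AQ comparisons of Pdk2 gave at most 0.39 in size. Pdp2 was lower in the transgenic controls, at 5.65, 4.21 and 4.78 CPM against 8.51, 7.72 and 7.75 CPM. These did not overlap, and the log2 difference was -0.62 ± 0.19 (limma adjusted p = 0.0796).

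The subunits were lower in the transgenic controls as well, with Pdha1 at -0.32 ± 0.11 and Pdhb at -0.33 ± 0.12 (limma adjusted p = 0.122 and 0.137). Pdk4 was at 1640, 1449 and 662 CPM in these controls and overlapped the other group. In all, 8 of the 10 genes were below 0 with a median of -0.25, and 1 passed, Pdk2, against 559 genes or 4.46% of those tested. For higher levels that share was 2.78%. Scaling to the plain total gave 178 genes higher and 218 lower, in place of 348 and 211. The clock score did not overlap, at -1.43 to -1.93 in the transgenic controls and -3.43 to -3.93 in the other group, and with it as covariate the Pdk2 difference was 0.61 (limma adjusted p = 0.00791). Of the 25 PPAR targets Ucp3 passed, at -1.24 ± 0.33 (limma adjusted p = 0.0423). Of the 6 slow or oxidative fibre markers 1 was above 0, with a median of -0.38, and their sums overlapped, at 3567 to 4032 CPM in the transgenic controls and 2920 to 4310 CPM in the other group. Of the 5 fibroblast and matrix markers 3 were above 0 and 3 had an unadjusted p under 0.05, with a median of 0.27, and the 4 leukocyte markers were all above 0, with a median of 0.16. None of these markers passed, and their part was not tested. No litter, cage or sequencing run is named for these groups in the labels, so such differences cannot be told apart from the group.

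The Nurr1 transgene was compared with its own wild-type controls on HFD. No pyruvate dehydrogenase gene passed, although Nr4a2 rose by 3.02 ± 0.27 on the log2 scale (limma adjusted p = 7.91e-06). Pdk4 was at 1135, 1021 and 781 CPM in transgenic muscle and at 1640, 1449 and 662 CPM in control muscle. The transgenic values lay inside the range of the controls, and the log2 difference was -0.27 ± 0.42 (limma adjusted p = 0.935). It was -0.67 (limma adjusted p = 0.784) without control replicate 3, the lowest of its group, and -0.018 (0.994) without control replicate 1. With the clock score as covariate its sign turned, to 0.24 (limma adjusted p = 0.876).

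Pdp1 was at 87.0, 98.2 and 122 CPM in transgenic and 123, 117 and 141 CPM in control muscle. The transgenic libraries were lower in the mean with a slight overlap, at -0.32 ± 0.14 (limma adjusted p = 0.509). Pdk2 at 660, 662 and 744 CPM overlapped its controls, with a log2 difference of -0.07 ± 0.07. Dlat was at 303, 311 and 305 CPM against 253, 278 and 277 CPM, so that the groups did not overlap, at 0.19 ± 0.14 (limma adjusted p = 0.814). Pdha1 and Pdhb differed by 0.06 and 0.12, and Pdk1 by -0.01. Pdk3 differed by 0.35 ± 0.19 on few reads, and Pdp2 by 0.27 with 1 transgenic library at 9.90 CPM and the others at 5.19 and 4.21 CPM.

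Of all genes, 75 or 0.599% passed in limma for the transgene, and none of the 10; at an unadjusted p under 0.05 there were 1 of the 10, Pdp1, and 1121 genes in all. edgeR called 81 genes and DESeq2 171, none of the 10 among them. Of the pyruvate entry genes, Slc16a3 came closest at 0.67 ± 0.15 (limma adjusted p = 0.0531). Of the regulators, Klf15, a glucocorticoid-induced factor of muscle metabolism, was at -0.77 ± 0.20 (limma adjusted p = 0.118). The clock score did not overlap, from -3.29 to -2.96 with the transgene and from -1.93 to -1.43 without it. Summed adipocyte markers overlapped, from 3441 to 5598 CPM with the transgene and from 2504 to 3576 CPM without it, and their part was not tested. Most of that sum was Car3, at 3297 to 5441 CPM with the transgene and 2400 to 3465 CPM without it. The mean log2 level of the 7 markers overlapped too, at 0.53 to 0.83 with the transgene and 0.23 to 1.18 without it. With the clock score as covariate 72 genes passed, none of the 10 among them.

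The make-up of the kinase mRNA pool followed from these levels and is given as a description. Pdk4 made up 68.1%, 77.7% and 55.5% of summed kinase CPM per kb in the untreated HFD libraries. With AQ on HFD it was 42.2%, 44.8% and 39.2%, below all of these. On chow it was 64.4%, 35.9% and 40.7%, with replicate 1 again apart, and on chow with AQ 41.1%, 24.6% and 35.2%. In the transgenic controls it was 59.8%, 54.2% and 34.7%, and in transgenic muscle 51.0%, 48.1% and 38.9%. Pdk2 made up nearly all of the rest, Pdk1 1.88% to 5.70%, and Pdk3 at most 0.177%.

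**Figure D3:**
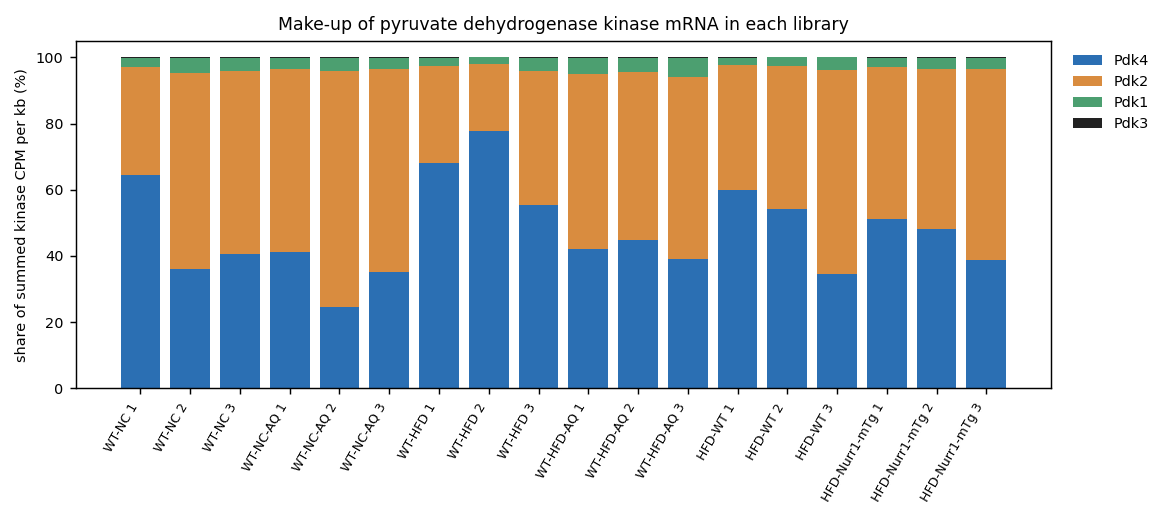
Share of each kinase gene in summed kinase CPM per kb (vertical axis, percent) in each of the 18 libraries (horizontal axis). The Pdk4 share ran from 24.6% in a chow library with AQ to 77.7% in an untreated HFD library.

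Set against phosphatase mRNA, the kinase pool was smallest on HFD with AQ. There the sum of the 4 kinases per kb was 10.3, 10.8 and 7.86 times the sum of Pdp1 and Pdp2. In untreated HFD muscle the ratio was 27.1, 38.7 and 16.5, and on chow 26.8, 16.005 and 11.5. Chow with AQ gave 19.2, 16.5 and 18.5, above all libraries of HFD with AQ. With Pdk4 left out of the sum, HFD with AQ still had the lowest values, at 5.96, 5.99 and 4.78, against 6.80 or more in every other library. These are ratios of mRNA, not of enzyme activity.

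Across the 18 libraries the subunits varied together. Pearson r of log2 CPM was 0.93 for Pdha1 and Pdhb, 0.89 for Pdhb and Dlat and 0.76 for Pdha1 and Dlat. With each group's mean removed these were 0.90, 0.92 and 0.81. The libraries share the groups and the scaling, so these are descriptions. Pdk2 ran the other way from Pdha1 over all libraries, at -0.65, and this was not seen within groups, where r was 0.17. Pdk4 was related weakly to the other 9 genes, at -0.33 with Pdp1 and 0.33 with Dlat at the most.

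Among 10752 other genes, those most like Pdk4 over the 18 libraries included Ucp3 (r = 0.84), Iqgap2 (0.83), Agpat9 (0.82) and Rap1b (0.81). Ucp3 encodes a mitochondrial uncoupling protein of muscle and Iqgap2 a scaffold protein of the IQGAP family. With group means removed r was 0.91 for Ucp3 and 0.76 for Iqgap2, so that single libraries within a group carried the likeness too. Ucp3 was at 267, 111 and 151 CPM on chow and at 355, 452 and 170 CPM on HFD. Its libraries kept the order of Pdk4 within each of these groups, but not on HFD with AQ or in the transgenic controls. With AQ on HFD, Ucp3 was at 157, 128 and 155 CPM, a log2 difference of -1.04 ± 0.33 from untreated HFD (limma adjusted p = 0.208). With the transgene, Ucp3 differed by 0.66 ± 0.33 (limma adjusted p = 0.598) and Pdk4 by -0.27. Of the 25 PPAR targets, Ucp3 among them, 5 were above 0 in that comparison, with a median of -0.11.

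**Figure D4:**
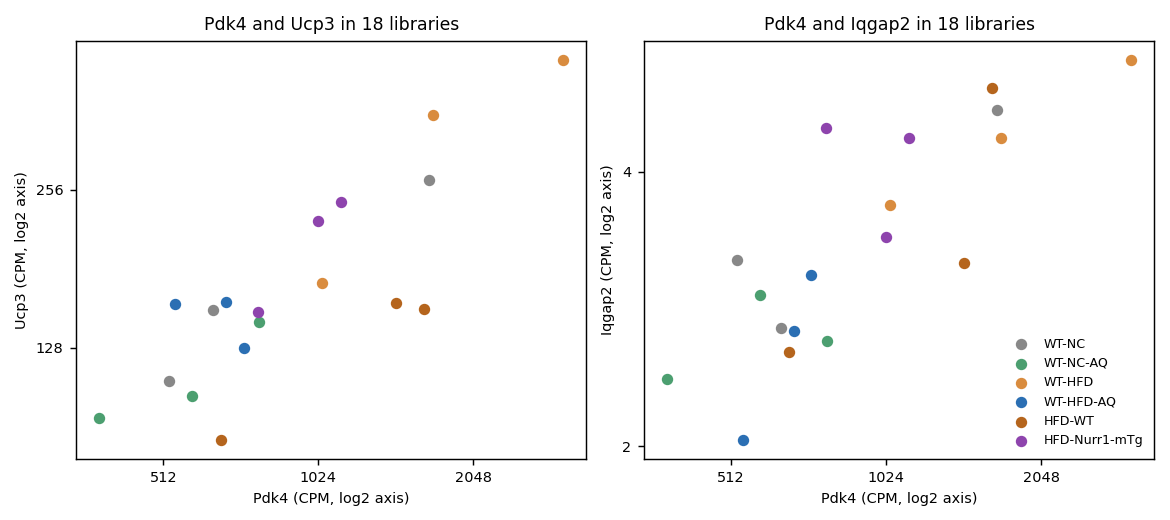
Ucp3 (left) and Iqgap2 (right) against Pdk4 in CPM on log2 axes; each point is 1 of 18 libraries, coloured by group. The HFD library with the most Pdk4, at 3060 CPM, also held the most Ucp3, at 452 CPM, and the most Iqgap2, at 5.31 CPM.

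The genes most like the other kinases differed. For Pdk1 they were Foxred1 (r = 0.87), an assembly factor of respiratory complex I, and Acad11 (0.86), an acyl-CoA dehydrogenase. For Pdk2 they were Nfix and Uba1, both at 0.93, which fell to 0.38 and 0.30 once group means were removed. For Pdk3 they were Armcx1 and Gnb4, both at 0.75, over few reads of Pdk3.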

How the data were processed

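The deposited table lists 12558 genes by symbol; TopHat2 2.0.12, edgeR and the builds GRCm38 and mm10 are named in the submitters' processing notes. The deposited signal, made by the authors, is CPM scaled by TMM factors, and its columns summed to 929993 to 1071538. Each value (100%) corresponded to whole reads scaled by 1 factor per library, within 1e-06 of the read number. TMM recomputed on those reads gave the deposited values. The sources used here do not give the counting tool, annotation, use of strand or gene filter. A gene at 3 reads lay at 0.191 to 0.277 CPM, a floor that covers counting error only.

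limma 3.58.1 in R 4.3.3 (trend, two-sided) was fitted to log2(CPM + 1) with 6 group means and 12 residual degrees of freedom, over the 12524 genes that reached 1 CPM in 3 or more libraries. Adjusted p-values are Benjamini-Hochberg over all of these, with a threshold of 0.05. This scale understates fold changes of low genes. Comparisons that use the same group share its libraries: untreated HFD enters 4 and chow 3, so their values are set side by side only. The fit was tested on simulated data. Alternatives included edgeR 4.0.16 and DESeq2 1.42.0 on the recovered reads. Gene lengths are exon unions of GENCODE M21 on GRCm38.

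The 10 genes, the gene lists and the tests were chosen with earlier results of these data known. Beside the 10 genes, each list names up to 4 genes past the threshold by size or, with none, up to 2 with the smallest unadjusted p, and likeness names the 5 genes with the highest r for Pdk4 and 2 for each other kinase. The text gives some of these and all counts; 1 gene is not reported here. The labels number biological replicates without saying whether same-numbered mice share a litter or day. Same-numbered libraries deviated from their group means with correlations of -0.214 to 0.306, not all above 0.1, so the numbers were not taken as pairs.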

Additional observations from a re-analysis of the deposited data

Results flagged for a closer look

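Groups of 3 libraries are too small for a search for single outlying samples, so only effects that differ between the diets are listed. The search covered only the 10 genes and the genes named from the lists or for likeness. Over all genes tested, 89 passed the interaction. For the glucose transporter gene Slc2a1 the AQ effect differed between HFD and chow by -0.99 ± 0.20 on the log2 scale (limma interaction, adjusted p = 0.0349). Slc2a1 was at 18.1, 18.4 and 15.1 CPM on chow with AQ and 8.64, 11.5 and 12.01 CPM on chow without. It was at 10.004, 11.97 and 11.6 CPM on HFD with AQ and 14.2, 18.8 and 11.4 CPM on HFD without. For the clock gene Npas2 the difference was -1.93 ± 0.37 (limma interaction, adjusted p = 0.0287).

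In 4 further genes of that search the AQ libraries lay wholly to one side of the untreated libraries on HFD and to the other side on chow. The interaction missed the threshold in limma for each. For Acta1 the gap on chow was narrow, with the lowest AQ library at 36772 CPM and the highest untreated one at 36748 CPM. How many of all genes did the same was not counted. The limma interaction was -1.72 ± 0.40 for the clock gene Arntl (adjusted p = 0.0522) and -0.997 ± 0.30 for the ubiquitin ligase gene Fbxo32 (adjusted p = 0.138). It was -0.74 ± 0.22 for the macrophage receptor gene Csf1r (adjusted p = 0.138) and -0.55 ± 0.30 for the actin gene Acta1 (adjusted p = 0.411). None of the 10 pyruvate dehydrogenase genes was among these 4.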

How the results depend on the processing

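Of 70 differences (10 genes in 7 comparisons), 54 kept their sign under every alternative run and 16 did not. Pdk2 passed in all 16 alternatives under AQ and between the wild-type HFD groups, and Pdp1 under AQ in 15.

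Counts of genes past the threshold moved as follows. HFD against chow gave 3 (plain CPM scaling), 2 (only the groups compared), 12 (replicate block) and 47 (DESeq2). AQ on HFD gave 1 (groups compared), 49 (block), 140 (DESeq2) and 16 (clock score), with 1 of the 10 genes, Pdp1, called by the block (adjusted p = 0.0237) and by DESeq2. AQ on chow gave 43 (plain), 13 (groups compared), 284 (DESeq2) and 19 (GC trend removed), with 1 of the 10 called by DESeq2. The transgene gave 171 (DESeq2), and HFD under AQ 531 (clock score). The interaction gave 32 (plain), 229 (DESeq2), 27 (GC) and 30 (clock score), with 1 of the 10, Pdp1, called by the block (adjusted p = 0.0182) and by DESeq2. The wild-type HFD groups gave 96 (groups compared), 305 (GC) and 319 (clock score), with 2 of the 10 called by the block, Pdk2 and Pdp2 (adjusted p = 0.0439). The block changed no other call among the 10 genes. The causes were not tested.

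Leaving out single libraries gave 0 to 40 genes for HFD against chow (40 without chow replicate 1), 0 to 224 for AQ on HFD (224 without untreated HFD replicate 3), 13 to 113 for AQ on chow, 42 to 71 for the transgene, 573 to 1130 for HFD under AQ, 3 to 103 for the interaction and 145 to 749 for the wild-type HFD groups. Of the 10 genes it called 0 to 2 for AQ on HFD, 2 to 6 for HFD under AQ and 0 to 1 for the interaction.

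Signs that turned were all of values short of the threshold. With the clock score as covariate, AQ on chow gave 0.033 for Pdp1 and -0.0035 for Pdp2, and the transgene 0.034 for Pdk1 and 0.24 for Pdk4. Plain CPM scaling gave 0.029 for Pdk1 with the transgene and -0.035 for Pdp1 between the wild-type HFD groups. The Pdk3 interaction was -0.0051 with edgeR and -0.0022 with DESeq2. Without single libraries, HFD against chow ran from -0.074 to 0.17 for Pdk3, -0.20 to 0.10 for Pdp1 and -0.035 to 0.094 for Pdpr, and AQ on HFD from -0.0052 to 0.13 for Pdk1. AQ on chow ran from -0.30 to 0.0031 for Pdp1, -0.17 to 0.020 for Pdha1 and -0.29 to 0.024 for Dlat. The transgene ran from -0.042 to 0.044 for Pdk1, -0.043 to 0.49 for Pdp2 and -0.00025 to 0.13 for Pdha1. HFD under AQ ran from -0.10 to 0.24 for Pdk3 and -0.069 to 0.44 for Pdk4, the Pdk3 interaction from -0.15 to 0.18, and Pdp1 between the wild-type HFD groups from -0.074 to 0.085.

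With 3 libraries a group, the SE of a Pdk4 difference was 0.42, the widest of the 10 genes. Pdk3, at 5 to 26 reads a library, is too shallow for small differences.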
